A study of Mus musculus with 24 samples.

Results

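The comparison of spared nerve injury (SNI) with sham surgery in the anterior cingulate cortex (ACC) of male mice rested on 6 of the 24 RNA sequencing libraries of the series. The members were taken as the male ACC libraries by their labels: 3 from sham-operated mice (Sham1, Sham2 and Sham3) and 3 from mice with SNI (SNI1, SNI2 and SNI3). All mice were males, by the labels C57BL/6 of 3 months and in the study's methods C57BL/6J of 2 to 3 months, and the tissue was taken 2 weeks after surgery. In SNI the common peroneal and sural branches of the left sciatic nerve were ligated and cut and the tibial branch was spared, whereas sham mice had the same exposure without nerve injury. Anaesthesia and incision were therefore shared by both groups, and the labels name no transgene and no drug in either. The ACC was punched from slices, and each library pooled the punches of several animals. The replicates are thus pools, and all p-values below measure the spread between pools.

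The ACC is a midline area of the frontal cortex that receives nociceptive input through the thalamus and takes part in the unpleasantness of pain rather than its location. Long-lasting pain after nerve injury is known to strengthen excitatory transmission in this area, mainly through glutamate receptors on pyramidal neurons, and to weaken inhibition by GABA. Such changes in synaptic strength draw on transcription, protein folding and energy supply in neurons, and glia and vessels are measured together with the neurons when whole tissue is sequenced. In such bulk tissue, fewer cells of a type and less RNA per cell cannot be told apart.

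The 6 libraries were of nearly equal depth, with 25776315 to 27366257 reads counted on genes and normalization factors between 0.985 and 1.01. The labelled tissue and sex fitted the markers in all 6 libraries for the cortex: 16 of 16 excitatory and 20 of 20 inhibitory neuron markers passed the count filter, and the Y-linked gene Ddx3y lay between 39.4 and 61.6 CPM in each (CPM are the reads of a gene scaled to a common library size). Xist, the RNA that silences an X chromosome in females, was at 0.0366, 0.552 and 0.22 CPM in Sham1, Sham2 and Sham3 and at 0.268, 0.5 and 3.0 CPM in SNI1, SNI2 and SNI3. SNI3 was thus highest, and its level is given here because an all-male pool should hold little of it. The part of this difference in any other result was not tested.

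The libraries did not separate by surgery. On the first principal component, which held 32.8% of the variance, Sham1 and Sham2 lay at -25.4 and -21.8, while Sham3 lay at 20.1, beyond SNI2 at 16.6, SNI1 at 11.8 and SNI3 at -1.29. Sham3 correlated best with SNI2 across genes (r = 0.992, genes are not independent replicates), and SNI2 correlated best with Sham3. The second component, with 21.8% of the variance, set SNI1 at -30.2 apart from the other libraries. The slope of log2 expression on the GC content of genes followed the first component: per 10 points of GC it was -0.171 and -0.155 in Sham1 and Sham2, 0.135 in Sham3, 0.122 and 0.1 in SNI1 and SNI2 and -0.0308 in SNI3. Sham3 and SNI1 are therefore named as the libraries that stand apart, and the leading results are given with and without each. The labels and headers give no extraction or sequencing batch that could be compared with this split.

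**Figure D1:**
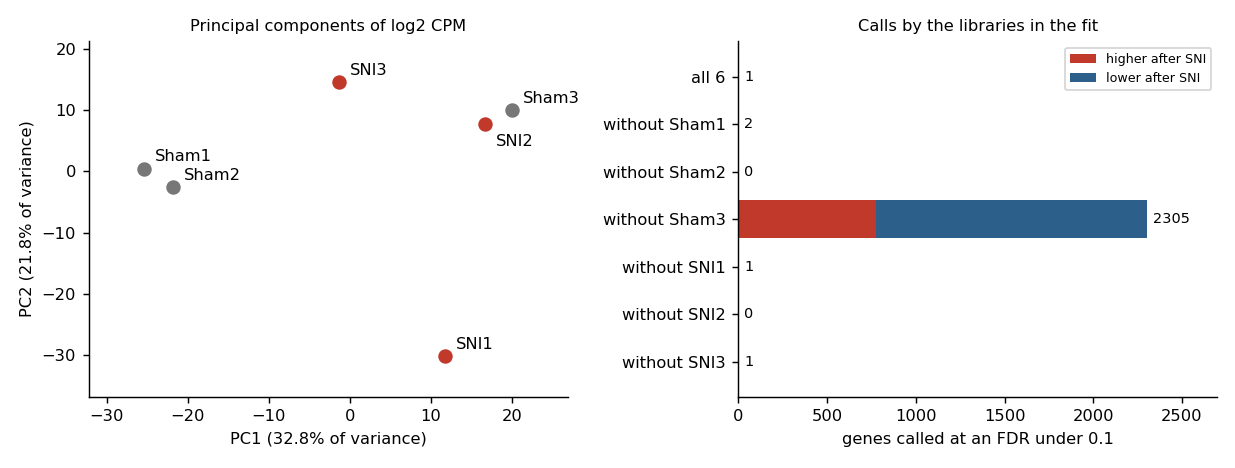
The left panel places the 6 libraries on the first and second principal components of log2 CPM (axes give the share of variance), with sham in grey and SNI in red; the right panel gives the number of genes called at a false discovery rate under 0.1 when each library is left out, split by direction. Sham3 sits at 20.1 on the first component, on the side of SNI1 and SNI2 and beyond both. SNI1 sits alone at -30.2 on the second, and leaving out Sham3 takes the calls from 1 to 2305.

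A single gene entry was called with all 6 libraries. Of 16702 genes tested with edgeR's quasi-likelihood test, 1 was called at a false discovery rate (FDR) under 0.1, which is 0.00599% of the genes tested. It was the Ensembl entry ENSMUSG00000116378, which carries the symbol Gcat (glycine C-acetyltransferase, a mitochondrial enzyme that takes part in the breakdown of threonine to glycine). At an unadjusted p under 0.05 there were 749 genes (4.48%), 295 higher and 454 lower after SNI. Without SNI1 there was again 1 call among 16995 genes (0.00588%), and it was the same Gcat entry. Without Sham3 there were 2305 calls among 17013 genes (13.5%), 776 higher and 1529 lower. Without both SNI1 and Sham3 there were 300 calls among 16855 genes (1.78%), 48 higher and 252 lower.

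The Gcat entry that fell is 1 of a pair that the annotation places on the plus strand of chromosome 15 (GRCm38). ENSMUSG00000006378 spans chr15:79030874-79038353 and is the usual gene, with transcript Gcat-201. ENSMUSG00000116378 spans chr15:79030901-79042531, and its transcript Gcat-203 uses exons 1 to 8 of the usual gene but takes a distant exon 9 at chr15:79041928-79042531, where 363 of its 604 bases lie in exons of Galr3, the gene of a galanin receptor. Gcat-201 has its own exon 9 at chr15:79037143-79038353. The 2 transcripts differ in exon 9 and at the start of exon 1, which has 247 bases in Gcat-201 and 220 in Gcat-203. The junction of exons 8 and 9 is shown for both because it is where they part, with the last 30 bases of exon 8 in lower case and the first 30 bases of exon 9, which code for protein in both, in capitals.
Gcat-201: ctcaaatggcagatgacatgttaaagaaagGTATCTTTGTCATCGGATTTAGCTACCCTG
Gcat-203: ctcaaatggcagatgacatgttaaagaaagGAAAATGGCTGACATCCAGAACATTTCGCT

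The long entry, ENSMUSG00000116378, was at 2.71, 3.15 and 2.46 CPM in Sham1, Sham2 and Sham3 and at 0, 0.115 and 0.228 CPM in SNI1, SNI2 and SNI3. In reads these were 74, 80 and 67 against 0, 3 and 6. The groups did not overlap, and the means were 2.78 ± 0.35 and 0.115 ± 0.114 CPM (SD, n = 3). The fitted log2 fold change was -4.54 with a standard error of 0.466 (edgeR's quasi-likelihood test, FDR 0.0269), a value that depends on the prior count because SNI1 held no read. It was -3.97 without SNI1 (FDR 0.0225) and -4.61 without Sham3 (FDR 0.0264). The call was lost in 5 of the 19 other fits that gave this gene a value.

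The usual Gcat entry, ENSMUSG00000006378, lay the other way. Its levels were 7.51, 6.27 and 7.13 CPM in the sham libraries and 9.82, 9.19 and 10.1 CPM in the SNI libraries, again without overlap. Its log2 fold change of 0.48 (SE 0.108) did not pass the test across all genes (FDR 0.768 by edgeR's quasi-likelihood test). Added together, the 2 entries gave 10.2, 9.42 and 9.59 CPM in sham and 9.82, 9.31 and 10.3 CPM in SNI. These sums overlapped, with means of 9.75 ± 0.42 and 9.81 ± 0.5 CPM (SD, n = 3). The reads counted on the 2 entries together thus differed by less than the spread between replicates. The entries share exons 2 to 8 in full, and how reads of shared bases were counted is not given in the sources used here. The sum may therefore not hold all reads of the locus. The primer pair that the study used for Gcat by qPCR lies in exons 1 and 2 and matches both transcripts, each with a product of 131 bases. It therefore reads the 2 entries together. The study reports that qPCR on independent samples of individual mice bore out its sequencing results for the ACC genes taken to qPCR, Gcat among them. The summed CPM is not the quantity that this qPCR measured.

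**Figure D2:**
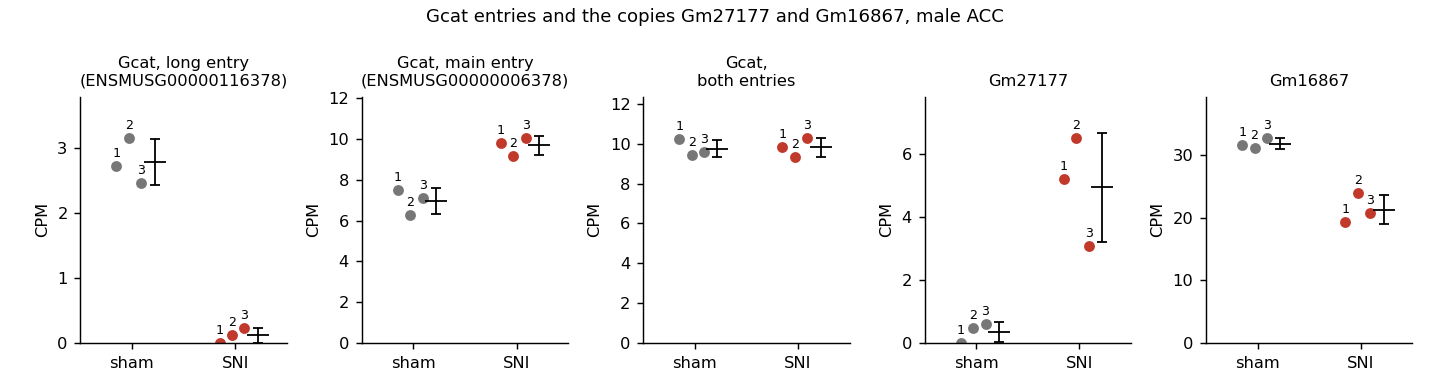
CPM in each male ACC library for the long Gcat entry, the usual Gcat entry, their sum, Gm27177 and Gm16867, with sham in grey, SNI in red, numbers for the library and the mean with 1 SD beside the points. The long entry is at 0 to 0.228 CPM in all SNI libraries against 2.46 to 3.15 in sham, the sum of the Gcat entries overlaps between the groups, and Gm27177 and Gm16867 lie in opposite directions.

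A second pair of entries with shared sequence stood next in rank. Gm27177, an antisense RNA gene at chr14:69582164-69683286, was at 0, 0.473 and 0.588 CPM in sham and at 5.2, 6.5 and 3.08 CPM in SNI. Gm16867, annotated as protein coding at chr14:69363504-69503362, was at 31.6, 31.2 and 32.8 CPM in sham and at 19.3, 23.9 and 20.7 CPM in SNI. Neither pair of groups overlapped, and the log2 fold changes of 3.79 (SE 0.533, FDR 0.229) and -0.58 (SE 0.0883, FDR 0.304) were not called by edgeR's quasi-likelihood test with 6 libraries. Of the 2917 windows of 30 bases in the longest Gm27177 transcript, 2917 were also found in Gm16867, so reads of 1 can be counted for the other. Their summed level was 31.6, 31.7 and 33.4 CPM in sham and 24.5, 30.4 and 23.8 CPM in SNI, with all SNI libraries below all sham libraries. A wider sum that adds Entpd4 and Entpd4b was at 167.1, 167 and 180.9 CPM in sham and at 151.8, 174.6 and 158 CPM in SNI, and there the groups overlapped. Entpd4b and Gm27177 together were at 58, 58.3 and 62.9 CPM against 61, 69.6 and 63 CPM, also with overlap. Entpd4 and Gm16867 together were at 109, 108.6 and 118 CPM against 90.8, 104.9 and 95 CPM, with all SNI libraries below all sham libraries. Neither primer of the study's Gm27177 qPCR pair was found without mismatch in a transcript of the annotation used here. Without Sham3 both genes were called (FDR 0.0277 and 0.0281), and without SNI1 neither was.

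Gm5641, a pseudogene on chromosome 3 that the study also took to qPCR, depended on Sham3 alone. It was at 12.1 and 11.2 CPM in Sham1 and Sham2, at 0 in Sham3, SNI1 and SNI2 and at 0.114 CPM in SNI3. The gene did not pass the count filter with 6 libraries, and without Sham3 its FDR was 7.96e-06 (edgeR's quasi-likelihood test), the smallest of that fit. Its primer product of 172 bases is shown because it is identical, with 0 mismatches, in Gm5641 and in Hnrnpa3, which codes for an abundant RNA-binding protein.
Gm5641 and Hnrnpa3: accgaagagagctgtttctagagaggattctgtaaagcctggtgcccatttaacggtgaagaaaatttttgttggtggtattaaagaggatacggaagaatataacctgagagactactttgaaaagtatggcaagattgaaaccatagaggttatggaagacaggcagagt
The pair also matches the pseudogenes Gm11847 and Gm5940 in full. Hnrnpa3 itself lay at 382.5, 381.1 and 310.1 CPM in sham and at 293.5, 294.7 and 346.2 CPM in SNI, which is far above Gm5641, and Sham3 was within the range of the SNI libraries.

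The other genes that the study took to qPCR in the ACC overlapped between the male groups. Scn4b, an auxiliary subunit of voltage-gated sodium channels, had a log2 fold change of 0.06 (SE 0.0748), and Syt2, a calcium sensor of vesicle release, one of -0.03 (SE 0.14). Acta2, smooth muscle actin, was at -0.04 (SE 0.222) and Col1a1, a collagen chain, at -0.10 (SE 0.26). In the female ACC the same values were 0.42, 0.4, -0.45 and -0.57, and none of the 4 sex by SNI interactions passed the test across all genes (FDR 0.753 to 0.758, edgeR's quasi-likelihood test). Acta2 and Col1a1 changed sign without SNI1 and without Sham3.

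Across all genes tested, all SNI libraries lay above all sham libraries in 677 (4.05%) and below them in 679 (4.07%), 1356 in all (8.12%). Among the 10 higher genes with the smallest p of this kind, besides the usual Gcat entry and Gm27177, was Fam89b, which codes for a leucine repeat adapter protein. It was at 7.26, 9.54 and 9.15 CPM in sham and at 12.3, 12.2 and 12.4 CPM in SNI (log2 fold change 0.51, SE 0.113). Uba7, the activating enzyme for the ubiquitin-like protein ISG15, was at 1.94, 1.97 and 2.35 CPM against 3.44, 3.85 and 2.97 CPM (0.71, SE 0.176). Nudt6, a gene that overlaps the fibroblast growth factor gene Fgf2 on the opposite strand, was at 1.06, 0.986 and 1.18 CPM against 2.94, 1.92 and 1.94 CPM (1.07, SE 0.243). SNI1 was the highest of the SNI libraries for Nudt6 and was not so for Fam89b or Uba7, and without SNI1 the 3 values were 0.52, 0.71 and 0.85.

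The remaining higher genes of that ranking were mostly noncoding or poorly described. Hmcn1, an extracellular matrix protein of the fibulin family, was at 3.3, 4.1 and 2.98 CPM in sham and at 5.58, 4.77 and 5.28 CPM in SNI (log2 fold change 0.59, SE 0.155). Gm27998, a short RNA of miscellaneous type that lies inside the noncoding RNA gene Miat, was at 0, 0.0394 and 0.11 CPM against 0.497, 0.616 and 0.38 CPM. Miat itself, a nuclear RNA of neurons, was at 211.6, 201.2 and 224.7 CPM against 237.4, 265.7 and 227.4 CPM (0.20, SE 0.0743). Both were without overlap, and the strand setting of the counting is not given in the sources used here, so reads of the 2 cannot be told apart. Pgam1-ps2, Gm47106 and Gm8707, the first and the last of them pseudogenes, completed the ranking with log2 fold changes of 0.31, 1.73 and 1.68. Without Sham3, Fam89b, Uba7, Nudt6, Hmcn1, Gm27998 and Pgam1-ps2 were called, and Gm47106 and Gm8707 were not.

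On the lower side, besides the long Gcat entry and Gm16867, 3 of the 10 genes with the smallest p code for folding factors of the endoplasmic reticulum. Pdia3, a disulfide isomerase for glycoproteins, was at 207, 194 and 172 CPM in sham and at 149, 149 and 160 CPM in SNI (log2 fold change -0.32, SE 0.0761). Hsp90b1, also known as GRP94, was at 386, 376 and 316 CPM against 287, 284 and 303 CPM (-0.30, SE 0.0799). Pdia4, another disulfide isomerase, was at 53.4, 51.1 and 50.5 CPM against 42.8, 44.1 and 44.5 CPM (-0.24, SE 0.0644). In each of the 3 the groups did not overlap, and in each Sham3 was the sham library nearest to SNI. None of them was called with 6 libraries (FDR 0.768 by edgeR's quasi-likelihood test), and all 3 were called without Sham3 (FDR 0.0277, 0.0277 and 0.0443).

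Psma3, a subunit of the core proteasome, was at 54.1, 57.8 and 50.4 CPM in sham and at 42.5, 45.7 and 44.9 CPM in SNI (log2 fold change -0.29, SE 0.0737). Gm14308 and Gm14295, zinc finger genes of a repeated cluster on chromosome 2, were at 18.4, 17.8 and 13.4 against 7.68, 9.16 and 13.1 CPM and at 23.8, 23.9 and 17.6 against 14.8, 15.7 and 17 CPM. In both, Sham3 was hardly above the highest SNI library. Reads can be split among members of this cluster, so the values of single members are uncertain. The last of the 10, Gm29216 and Gm10925, are copies of mitochondrial genes and are described with those.

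The list of heat shock and chaperone genes holds 25 genes, all of which were tested, and 25 of 25 had a log2 fold change below 0. Of all genes tested, 8726 of 16702 were below 0. No gene of the list was called with 6 libraries by edgeR's quasi-likelihood test, 11 were lower at an unadjusted p under 0.05, and in DESeq2 the count at that p was 10, also with 0 called. In 10 of the 25 all SNI libraries lay below all sham libraries, against 4.07% of all genes. The median log2 fold change was -0.15, beside -0.01 over all genes tested. The summed level was 8092, 8042 and 7596 CPM in sham and 7176, 7175 and 7318 CPM in SNI, and the groups did not overlap.

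The genes without overlap sit in several compartments of the cell. In the endoplasmic reticulum, Hspa5, the chaperone BiP, was at 347, 325 and 293 CPM in sham and at 265, 260 and 283 CPM in SNI (log2 fold change -0.26, SE 0.0732). Calr, the calcium-binding lectin chaperone calreticulin, was at 345, 334 and 347 CPM against 308, 312 and 307 CPM (-0.15, SE 0.0548). Pdia6 was at 116, 114 and 118 CPM against 106, 107 and 105 CPM (-0.13, SE 0.0575), so that here Sham3 was the highest library.

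Sdf2l1, a cofactor of BiP, was at 13.3, 12 and 13.2 CPM in sham and at 10.1, 10.7 and 10.6 CPM in SNI, with a log2 fold change of -0.29 (SE 0.0896). Manf, a secreted factor of the same compartment, was at 37.4, 38.6 and 39.9 CPM against 34.5, 36.7 and 37.1 CPM. For both, all 3 sham libraries were higher, although for Manf SNI3 came close to Sham1. In the cytosol, Hsph1, an exchange factor of HSP70, was at 447, 441 and 413 CPM in sham and at 374, 369 and 387 CPM in SNI (-0.20, SE 0.0586). The most abundant member, the constitutive HSP70 gene Hspa8, was at 2109, 2126 and 2101 CPM against 2010, 1979 and 1995 CPM. In mitochondria the co-chaperonin Hspe1 was at 30.4, 29.8 and 31.1 CPM against 26.5, 25.9 and 27.8 CPM.

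Other members of the list overlapped between groups. Hspa1a, an inducible HSP70 gene, was at 27.7, 24.9 and 33.2 CPM in sham and at 27.6, 27.4 and 24.7 CPM in SNI. Atf4 and Ddit3, transcription factors of the stress response, and Dnajb1, an HSP40 cofactor, had log2 fold changes between -0.04 and -0.02. Hsp90aa1 and Dnaja1, both cytosolic, showed Sham3 with the SNI libraries: Hsp90aa1 was at 1300 and 1294 CPM in Sham1 and Sham2, at 1039 CPM in Sham3 and at 1009, 1019 and 1098 CPM in SNI.

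**Figure D3:**
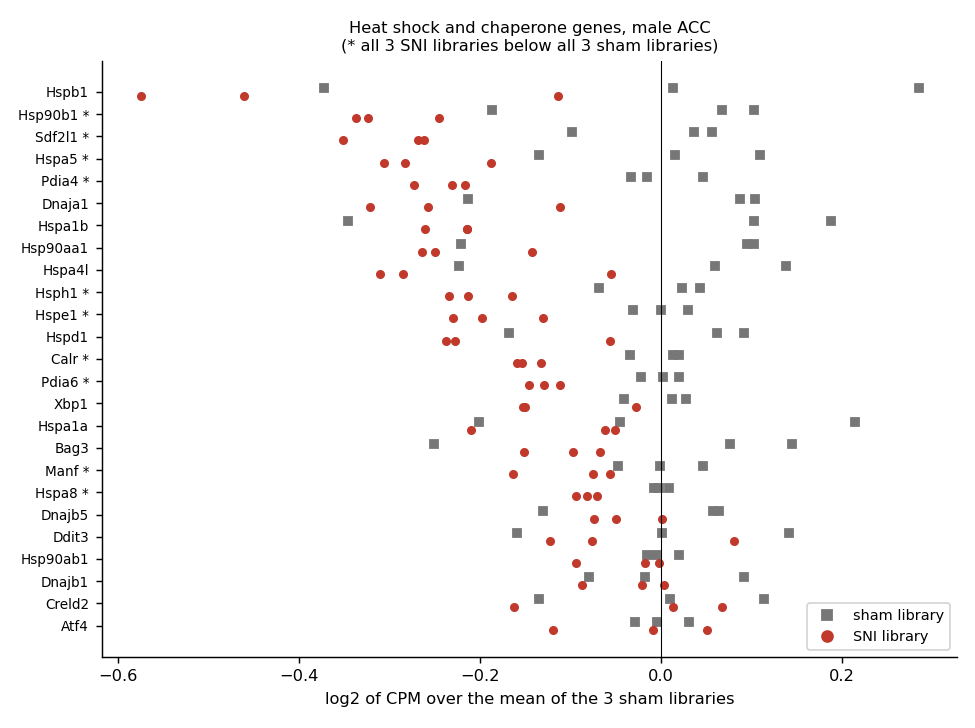
Each row is a gene of the heat shock and chaperone list, and each point is 1 male ACC library, placed by the log2 of its CPM over the mean of the 3 sham libraries (grey squares sham, red circles SNI). The 10 genes marked with an asterisk have all SNI libraries below all sham libraries, and in rows such as Dnaja1 and Hsp90aa1 1 sham square lies among the SNI circles.

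The chaperone median kept its direction with other libraries and scalings. Over the 21 fits, between 21 and 25 of the 25 genes were below 0 and the median ran from -0.17 to -0.11. Without SNI1, 24 of 25 were below 0 with a median of -0.13 and 0 called. The count at an unadjusted p under 0.05 was 11 with 6 libraries, 5 without SNI1, 5 without Sham1 and 6 without SNI2. It was 5 with the replicate block and 14 with the GC offset (edgeR's quasi-likelihood test throughout). Without Sham3, 21 were below 0 with a median of -0.12, and 8 were called, all lower, in a fit that called 13.5% of all genes (1529 lower of 17013, or 8.99%). With an offset for GC content, which the libraries differed in, 24 of 25 were below 0 with a median of -0.12.

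A list of 20 folding genes of the endoplasmic reticulum, put together after these values were seen and given as a description only, had 20 of 20 below 0 with a median of -0.12 and 10 of 20 without overlap, beside 4.07% of all genes with SNI below sham. A motif search was made in the 250 bases before the start of their genes, because the endoplasmic reticulum stress element is the sequence through which ATF6 is known to act on many of them. The letters CCAAT and CCACG with 9 bases of any kind between them were searched on either strand. They were present in 35 of 27025 RefSeq genes (0.13%, GRCm38.p6) and in 7 of the 18 genes matched among the 20. A gene was counted when any of its promoters of that length held the motif. The element is known to act in many such genes, so this share follows from the choice of genes and says nothing about SNI. Whether ATF6 had a part in the lower values was not tested. The matches of 4 genes without overlap between groups are shown, on the strand of the gene, with the motif in capitals (in the reverse direction for Calr and for Hsp90b1, near).
Hspa5: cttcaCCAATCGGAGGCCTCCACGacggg
Hsp90b1, far: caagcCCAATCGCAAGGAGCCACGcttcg
Hsp90b1, near: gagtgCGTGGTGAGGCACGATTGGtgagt
Pdia6: agagaCCAATGAAAGGCGGCCACGgcgtg
Calr: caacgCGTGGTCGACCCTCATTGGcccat
They lie at chr2:34772020-34772048 on the plus strand (Hspa5), at chr10:86705633-86705661 and chr10:86705528-86705556 on the minus strand (Hsp90b1), at chr12:17266486-17266514 on the plus strand (Pdia6) and at chr8:84847070-84847098 on the minus strand (Calr). The motif was also in the promoters of Canx, Dnajc3 and Creld2. Of these, Canx, the lectin chaperone calnexin, overlapped only through Sham3: it was at 402 and 394 CPM in Sham1 and Sham2, at 319 CPM in Sham3 and at 317, 315 and 340 CPM in SNI. Creld2, which holds the motif too, was at 11.3, 10.2 and 12.1 CPM against 10, 11.3 and 11.7 CPM, with full overlap. The heat shock element was read as GAA, TTC and GAA with 2 bases of any kind between each. It was in 0 of the 18 genes and in 0.514% of the RefSeq genes. In the heat shock and chaperone list, 2 of 21 genes (9.52%) held the heat shock element and 5 of 21 (23.8%) the endoplasmic reticulum stress element. These 5 are all among the 7 of the endoplasmic reticulum list. The 2 lists share members, so their counts, medians and shares are not separate results.

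The same lists were read in 2 other comparisons of SNI with sham. In females, 18 of the 25 heat shock and chaperone genes were above 0 in the ACC with a median of 0.03, and in the male medial prefrontal cortex (mPFC), a neighbouring area, 19 of 25 were below 0 with a median of -0.06. Of the 20 endoplasmic reticulum folding genes, 16 were above 0 in the female ACC with a median of 0.03, and their median in the male mPFC was -0.08, with 18 below 0. The median of all genes was -0.001 and 0.001. For Hsp90b1 the log2 fold change was -0.004 in females and -0.10 in the male mPFC, for Pdia3 0.01 and -0.12, and for Hspa5 0.06 and -0.13. The interaction of sex with SNI was not called for any of them (FDR 0.753, edgeR's quasi-likelihood test), so a difference between the sexes was not shown.

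Genes encoded by mitochondrial DNA, all subunits of the respiratory chain or of ATP synthase, made up the list with the lowest median. Of 13 genes 12 were tested, 10 were below 0, 7 of them at an unadjusted p under 0.05, and the median log2 fold change was -0.38. No member was called by edgeR's quasi-likelihood test or by DESeq2, which had 5 lower and 1 higher at that p. In edgeR the count of lower genes at that p was 4 without SNI1, without Sham1 or without SNI2, and 10 without Sham3. The summed level was 19076, 18200 and 15047 CPM in sham and 14803, 14383 and 17150 CPM in SNI, and these groups overlapped because Sham3 was below SNI3.

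Among the members, mt-Nd3 of complex I was at 222, 223 and 165 CPM in sham and at 121, 135 and 168 CPM in SNI (log2 fold change -0.52, SE 0.136), and mt-Nd4l at 96.8, 83.4 and 72.6 against 37.2, 53 and 72.8 CPM (-0.63, SE 0.196). In both, SNI3 was slightly above Sham3. mt-Co2 of complex IV was the exception without overlap in the other direction, at 401, 359 and 397 CPM against 420, 425 and 465 CPM (0.18, SE 0.0681). mt-Atp6 was at 660, 594 and 322 CPM against 386, 416 and 1149 CPM, with SNI3 far above the rest.

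Chromosome 1 carries copies of a stretch of mitochondrial DNA, and reads of the list's genes can fall on them. Gm10925 and mt-Atp6 were identical over 678 bases, Gm28661 and mt-Co2 over 681, Gm28437 and mt-Co3 over 783 and Gm10222 and mt-Nd4l over 294, while Gm29216 differed from mt-Co1 at 6 of 492 bases and Gm28438 from mt-Nd3 at 1 of 345. Gm29216 at chr1:24615706-24616197 was at 854, 798 and 834 CPM in sham and at 559, 662 and 674 CPM in SNI (log2 fold change -0.39, SE 0.0762). Gm10925 was at 2816, 2752 and 2430 CPM against 2132, 2159 and 1725 CPM (-0.41, SE 0.0906), with its lowest value in SNI3, the library in which its twin mt-Atp6 was highest. These values of single entries are uncertain for that reason, and the sums of each pair follow.

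Summed with their copies, mt-Atp6 and Gm10925 were at 3476, 3346 and 2751 CPM in sham and at 2518, 2575 and 2874 CPM in SNI, and mt-Co2 and Gm28661 at 3308, 3156 and 2594 against 2402, 2534 and 2792 CPM. In both sums Sham1 and Sham2 were highest and Sham3 lay among the SNI libraries, so that the higher mt-Co2 entry and the high mt-Atp6 of SNI3 did not recur. The same order held for mt-Co1 and Gm29216, at 8852, 8483 and 7679 CPM against 7532, 7011 and 7756 CPM, for mt-Co3 and Gm28437, at 3731, 3602 and 2963 against 2913, 2902 and 3112 CPM, and for mt-Nd3 and Gm28438, at 322, 303 and 205 against 148, 180 and 246 CPM. The sum of mt-Nd4l and Gm10222 differed from these, at 246, 233 and 224 CPM in sham and at 117, 168 and 207 CPM in SNI, and did not overlap between groups. The 13 genes and 6 copies together came to 28833, 27560 and 23301 CPM in sham and to 22375, 22061 and 24489 CPM in SNI, with means of 26564 ± 2897 and 22975 ± 1321 CPM (SD, n = 3). The list's median was -0.27 without SNI1 and -0.47 without Sham3. Without Sham3, 8 of 12 were called lower (8.99% of all genes) and 1 higher, and without SNI1 and Sham3 3 were called lower (1.5% of all genes). With the GC offset the median was -0.17, with 8 of 12 below 0. In that fit mt-Co1, the most abundant member, went from -0.14 to 0.01.

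Nuclear genes of oxidative phosphorylation had a smaller median of -0.07, with 54 of 82 below 0 and 9 of 82 without overlap below sham, against 4.07% of all genes. Uqcrb, a subunit of complex III, was at 28.2, 25.7 and 22.1 CPM in sham and at 17.4, 20.3 and 21.6 CPM in SNI (log2 fold change -0.36, SE 0.11). Cox7b, a subunit of complex IV, was at 57.6, 56 and 54.2 CPM against 46.2, 47.4 and 49.8 CPM (-0.23, SE 0.0662). Cytosolic ribosomal protein genes had 57 of 83 below 0, a median of -0.04 and 7 without overlap below sham, among them Rpl30 at 63.5, 63.3 and 59.9 CPM against 49.6, 50.5 and 58.2 CPM. Without Sham3 the medians of the 2 lists were -0.01 and 0.004, beside 0.004 over all genes, and without SNI1 they were -0.03 and -0.02.

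The hepatocyte list was set by SNI1. The list was measured because brain tissue makes little of its genes, and its summed level was 74.5, 53.1 and 54.6 CPM in Sham1, Sham2 and Sham3, 152 CPM in SNI1 and 52 and 50.7 CPM in SNI2 and SNI3. Alb, the serum albumin gene, was at 7.07, 2.05 and 0 CPM in sham and at 25.1, 0 and 0 CPM in SNI. The major urinary protein genes, which are made in the liver of male mice, summed to 4.95, 0.512 and 0.293 CPM in sham and to 98.3, 0.192 and 0.19 CPM in SNI.

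SNI1 was thus the highest library in each of these, Sham1 was the next, and the remaining 4 libraries were below 1 CPM for the urinary proteins. Sham2 still carried Alb, and Sham3, SNI2 and SNI3 were at 0 for it. Apob, the main protein of liver lipoproteins, followed the same order with 0.953, 0.276 and 0 CPM in sham and 9.9, 0.0385 and 0 CPM in SNI. Of the 35 genes of the list, 0 had no read in Sham1 and in SNI1, and 9, 19, 18 and 23 had none in Sham2, Sham3, SNI2 and SNI3. Only 9 of the 35 passed the count filter, with a median log2 fold change of 0.6 that became -0.69 without SNI1. The part of these transcripts in other results was not tested. Without SNI1 the long Gcat entry was called and the chaperone median was -0.13. The chaperone genes at an unadjusted p under 0.05 (edgeR's quasi-likelihood test) were 5 in that fit, beside 11 with 6 libraries.

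**Figure D4:**
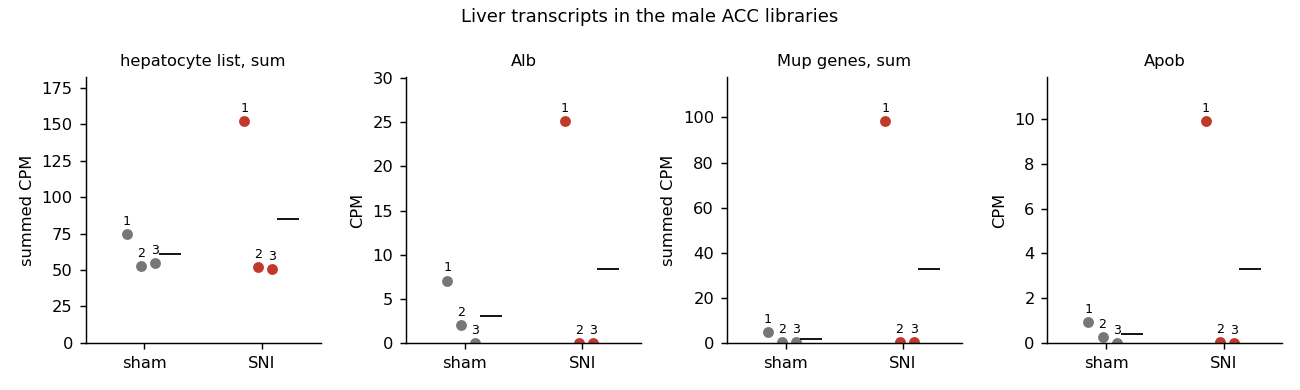
Summed CPM of the 35 hepatocyte genes, CPM of Alb, summed CPM of the major urinary protein genes and CPM of Apob in each male ACC library, numbered by library, with sham in grey, SNI in red and a line for the group mean. SNI1 is the highest library in every panel and Sham1 the next, while SNI2 and SNI3 are at or near 0 for Alb, the urinary proteins and Apob.

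Receptor and channel genes, the molecules through which synaptic strength in the ACC is set, had medians close to that of all genes with 6 libraries. Of 23 genes of ionotropic glutamate receptors and their auxiliary proteins 14 were above 0. Their median was 0.02, 0.04 without SNI1 and 0.03 without Sham3. In the fit without Sham3, 4 of the 23 were called higher and 4 lower, against 4.56% and 8.99% of all genes. With 6 libraries, the 2 at an unadjusted p under 0.05 were kainate receptor subunits. Grik4 was at 22.4, 25 and 23.8 CPM in sham and at 26.9, 29.6 and 25.1 CPM in SNI (log2 fold change 0.20, SE 0.0856) without overlap. Grik3 was at 124, 136 and 128 CPM against 147, 156 and 134 CPM (0.17, SE 0.0717) and overlapped.

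Of 20 GABA receptor and synthesis genes 13 were below 0 with a median of -0.06. Without SNI1 the median was -0.03, with 14 of 20 below 0. The median was -0.13 without Sham3, where 9 were called lower and 2 higher (8.99% and 4.56% of all genes in that fit), -0.01 without Sham2, and 0.01 with the GC offset, where 11 of 20 were above 0. Gabra2, an alpha subunit of the ionotropic receptor, was at 70.2, 69.9 and 54.4 CPM in sham and at 48.1, 51 and 61.7 CPM in SNI. Sham3 was below SNI3, and without Sham3 the gene was called (FDR 0.0447, edgeR's quasi-likelihood test). Sodium, calcium and HCN channel genes had 12 of 28 below 0 and potassium channel genes 40 of 77, with medians of 0.02 and -0.003. These medians were 0.04 and 0.00058 without SNI1 and 0.02 and 0.04 without Sham3. In the fit without Sham3, 3 of the 28 were called higher and 5 lower. Of the 77, 5 were called higher and 8 lower, against 4.56% and 8.99% of all genes. Scn1a, the sodium channel of fast-spiking interneurons, was at 216, 212 and 187 CPM in sham and at 169, 169 and 196 CPM in SNI (log2 fold change -0.20, SE 0.081). Again Sham3 lay within the range of the SNI libraries.

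Genes of glycine transport, receptors and metabolism, measured because Gcat makes glycine, had 10 of 18 above 0 and a median of 0.01, which was -0.06 without SNI1. The receptor subunit Glra3 was at 19.6, 17.1 and 12.3 CPM in sham and at 10.9, 12.8 and 14.4 CPM in SNI (log2 fold change -0.37, SE 0.163), with overlap. Layer 5 neuron markers had 10 of 15 below 0 with a median of -0.10. That median was -0.19 without Sham3, where 4 of 15 were called lower against 8.99% of all genes, -0.01 without Sham2, -0.05 without SNI1, where 8 of 15 were below 0, and -0.05 with the GC offset. Npr3, a natriuretic peptide receptor, was at 17.4, 19.7 and 16.8 CPM against 13.5, 16.8 and 14.6 CPM (-0.26, SE 0.104), so that Sham3 and SNI2 were nearly level.

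Immediate early genes, which follow neuronal activity within minutes, had 18 of 24 below 0 with a median of -0.08, and the sign of the median turned to 0.03 without Sham3. Without SNI1 it was -0.05, without SNI3 -0.17 and with the GC offset -0.13. It was -0.14 without Sham1, where 23 of 24 were below 0. Fos was at 24.8, 28.7 and 34.5 CPM in sham and at 23.4, 26.2 and 33.2 CPM in SNI, and Homer1, a scaffold of excitatory synapses with an activity-induced short form, at 465, 515 and 331 against 317, 317 and 379 CPM (log2 fold change -0.37, SE 0.14). Genes of the glucocorticoid and circadian list had 21 of 27 below 0 with a median of -0.11, and 18 to 22 of 27 over all 21 fits. That median was -0.08 without SNI1 and -0.11 without Sham3, and it ran from -0.15 without SNI3 to -0.06 without SNI2. Mt2, a metallothionein that glucocorticoids induce, was at 49.3, 44.5 and 51.7 CPM against 37.3, 36.3 and 48 CPM (-0.26, SE 0.109). No gene of either list was called by edgeR's quasi-likelihood test with 6 libraries. At an unadjusted p under 0.05 there were 2 and 1, all lower, and DESeq2 called 0 in both, with 1 and 1 at that p.

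Markers of glia, vessels and immune signalling were counted in the same way. Microglia markers had 14 of 20 above 0 with a median of 0.07, which was 0.04 without SNI1 and 0.11 without Sham3 and ran from 0.03 without SNI2 to 0.14 without SNI3. Cx3cr1, the fractalkine receptor, was at 41.5, 44.6 and 40.7 CPM in sham and at 46.9, 48.4 and 41.1 CPM in SNI. Astrocyte markers had 11 of 20 above 0 with a median of 0.01, which was -0.03 without SNI1, where 15 of 20 were below 0, and 0.07 without Sham3, where 4 were called higher against 4.56% of all genes. Among them Slc7a10, a carrier of glycine and serine, was at 21.1, 21.4 and 24.1 CPM against 30, 26 and 22.9 CPM, with overlap. Of 33 cytokine and chemokine genes 23 passed the count filter, 16 of these were below 0 with a median of -0.05 that was also -0.05 without SNI1 and 0.02 without Sham3, and Tnf and Il6 were at or below 0.115 CPM in all 6 libraries. Cxcl12, a chemokine of vessels and neurons, was the member without overlap, at 83.3, 80 and 80.7 CPM against 92.6, 86 and 84.1 CPM.

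Smooth muscle and pericyte markers had 12 of 15 above 0 with a median of 0.08, and endothelial markers 12 of 18 with a median of 0.04. The smooth muscle and pericyte median was -0.01 without Sham1 or Sham2 and 0.02 with the GC offset. It was 0.14 without SNI1, where 13 of 15 were above 0, and 0.22 without Sham3, where 3 were called higher against 4.56% of all genes. Without SNI1 and Sham3 it was 0.35, and 5 were called higher against 0.285% of all genes. Without Sham3, 16 of the 18 endothelial markers were above 0 and 4 were called higher, against the same 4.56%. Their median was 0.02 without Sham2, where 9 of 18 were above 0, and 0.05 without SNI1, where 12 were.

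Oligodendrocyte markers summed to 5653, 5453 and 4112 CPM in sham and to 5440, 3801 and 4963 CPM in SNI, so that Sham3 and SNI2 were the low libraries of their groups. Their median of -0.05 became -0.14 both without SNI1, where 29 of 29 were below 0, and without Sham3, -0.25 without both of these, again with 29 of 29 below 0, 0.06 without SNI2, where 20 of 29 were above 0, and 0.01 without Sham1. Meningeal fibroblast and matrix genes summed to 332, 254 and 423 CPM against 267.8, 392.2 and 287.2 CPM, and their median of -0.19 turned to 0.05 without Sham3 and to 0.16 without SNI1 and Sham3. It was -0.04 without SNI1 and -0.37 without Sham2 or without SNI2. The parts of these cell types in the results above were not tested.

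**Figure D5:**
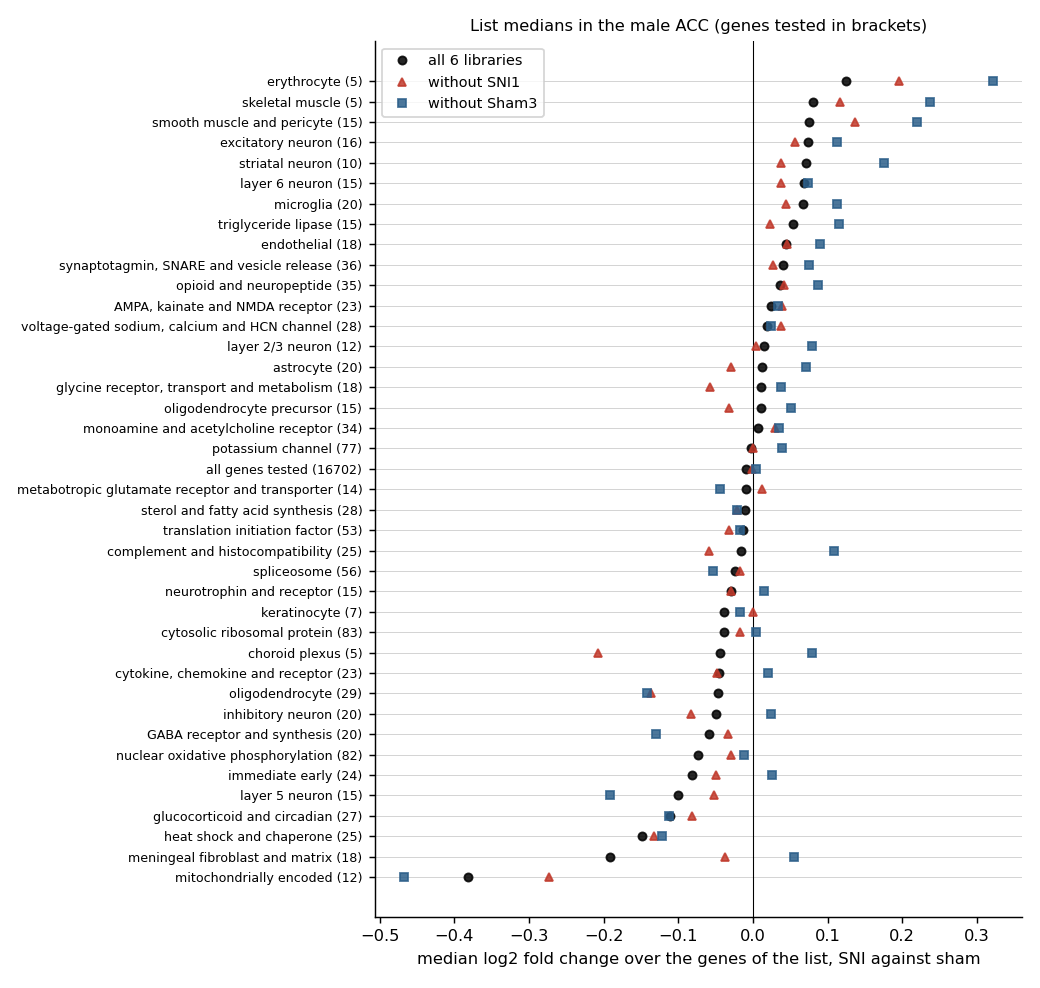
Median log2 fold change (SNI against sham) over the tested genes of each list and over all genes tested, with the number tested in brackets, for all 6 libraries (black circles), without SNI1 (red triangles) and without Sham3 (blue squares); the hepatocyte, ependymal and Y-linked lists are not drawn. The chaperone list stays between -0.15 and -0.12 in all 3 fits and the mitochondrially encoded list between -0.47 and -0.27, while the immediate early and meningeal lists cross 0 without Sham3.

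The 2305 genes called without Sham3 describe a contrast of Sham1 and Sham2 with the 3 SNI libraries. Of the 2295 of these that were tested with all 6 libraries, 444 reached an unadjusted p under 0.05 there, beside 4.48% of all genes, and 214 did not overlap, beside 8.12% of all genes. The 2 fits share 5 libraries. Sham3 lay within the range of the SNI libraries for 1278 of the 2305 and was nearer to the SNI mean than to the mean of Sham1 and Sham2 for 2215. The shares of all genes in these positions are not given, so the counts are not read as particular to the called genes. Vbp1, a subunit of the prefoldin chaperone, was at 40.7 and 42.3 CPM in Sham1 and Sham2, at 25.7 CPM in Sham3 and at 27, 25.8 and 30.3 CPM in SNI. Xpo1, the exportin of proteins from the nucleus, was at 98.6 and 99.8, 66.8 and then 67.8, 68.5 and 74.7 CPM.

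Among the higher genes of that fit, Gdf1, a growth factor of the TGF-beta family, was at 5.09 and 5.68 CPM in Sham1 and Sham2, at 12.1 CPM in Sham3 and at 16.9, 11.7 and 12.9 CPM in SNI. Its log2 fold change was 0.86 (SE 0.277) with 6 libraries and 1.37 (FDR 0.0264, edgeR's quasi-likelihood test) without Sham3. Zxda and Gm2223, both on the X chromosome, had no read in Sham1 and Sham2 and were at 7.53 and 2.13 CPM in Sham3, and at 6.99, 4.04 and 1.48 and at 2.83, 2.31 and 0.722 CPM in SNI. In these genes as in Gm5641, Sham3 carried the pattern of the SNI libraries. Of the 2305 calls, 285 were also among the 300 made without SNI1 and Sham3 together.

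Without SNI1 the ranking below the long Gcat entry changed in part. Nutf2, a carrier of Ran into the nucleus, was at 5.42, 3 and 4.48 CPM in sham and at 4.7, 10.4 and 9.28 CPM in SNI, with a log2 fold change of 1.2 without SNI1 (FDR 0.994, edgeR's quasi-likelihood test). Summed with its pseudogene Nutf2-ps1 it was at 25.1, 27.1 and 28.6 CPM against 26.3, 28.5 and 25.6 CPM, with overlap. Gm10925, Gm16867, Gm27177, Gm29216 and Gm47106 kept their place among the 10 leading genes by that rule.

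Neither interaction set the male ACC apart from its neighbours by gene. Tested over the 12 ACC libraries, the interaction of sex with SNI called 0 of 17289 genes, with 1024 at an unadjusted p under 0.05, and over the 12 male libraries the interaction of region with SNI called 0 of 17504, with 559 at that p (edgeR's quasi-likelihood test). DESeq2 called 2 and 3. For the long Gcat entry the log2 fold change was -0.14 in females and 0.39 in the mPFC of males, beside -4.54 in the male ACC, and its interaction with sex had an FDR of 0.119. With 3 pools a group, the comparisons of SNI with sham in the ACC of females and the mPFC of males called 4 and 84 genes, beside 1 here.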

How the data were processed

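RNA was sequenced from pooled ACC tissue of male mice, 3 libraries per group. The authors deposited gene counts, whole numbers of reads per gene from HTSeq 0.9.1 after trimming with Trimmomatic 0.36, removal of unwanted reads with Bowtie2 2.33 and alignment with HISAT2 2.1.0 to GRCm38, per the submitters' processing notes. The strand setting of the counting is not given in the sources used here. Symbols, biotypes, coordinates and transcripts came from GENCODE M21 and promoters from RefSeq. All 33364 genes of the table had an annotation entry. Counts of 25776315 to 27366257 per library limit the precision of low genes most. No 2 libraries of the same group agreed within sampling noise.

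Here edgeR 4.0.16 in R 4.3.3 was used: filterByExpr (10 counts, total 15), TMM scaling, a quasi-likelihood F-test of group and Benjamini-Hochberg adjustment over all genes tested, with an FDR under 0.1 called. CPM values use TMM library sizes, and SDs are over 3 libraries. Each standard error is the absolute log2 fold change over the square root of the F statistic, so it restates the test. Interactions of SNI with sex and with region used 12 libraries each. The procedure was tested on simulated data. Alternatives were DESeq2 1.42.0, a likelihood ratio test, other scalings and filters, a GC offset, a replicate block, larger sets of libraries and leaving out libraries. Leaving out SNI1 and Sham3 together was added after the data were seen.

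The members, the 42 gene lists and the tests were chosen with earlier results of these data known, and 2 more lists after values were seen. Lists are described by counts and medians without a test of their own. Genes were named if called, if among the 10 higher or 10 lower genes with the smallest p whose groups did not overlap, among the 5 higher and 5 lower by the same rule without SNI1 or without Sham3, if taken to qPCR in the ACC or on the study's sheet for this comparison, if first or of smallest p in a list, or if particular to 1 library. Further members of the lists and the sequence copies were named after their values were seen.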

Additional observations from a re-analysis of the deposited data

How the results depend on the processing

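The comparison in the male ACC called 1 gene with edgeR's quasi-likelihood test and 6 libraries. It called 3 with DESeq2, 5 with the likelihood ratio test, 10 with no filter on low counts, 0 with at least 10 counts in every library (689 at an unadjusted p under 0.05), 3 with the GC offset and 4 with all 12 ACC libraries in the fit. Leaving out 1 library gave 0 to 2305 calls: 2305 without Sham3, 2 without Sham1 and 0 without Sham2 or without SNI2. Without SNI1 and without the filter there were 2, and without SNI1 and Sham3 together 300. The interaction of sex with SNI went from 0 to 2 with DESeq2, 12 with the likelihood ratio test and 110 without the filter, and to between 0 and 1698 when 1 library was left out (1698 without male Sham3). The interaction of region with SNI went from 0 to 3, 11 and 128, and to between 0 and 1 (1 without male Sham2 and 1 without male Sham3). The causes were not tested.

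Replicate numbers did not pair the libraries: deviations of same-numbered libraries correlated at -0.00928, -0.0936 and -0.132, and not every library correlated best with its own number. With the replicate block 0 genes were called, with or without the GC offset (348 and 720 at an unadjusted p under 0.05), and the long Gcat entry had a log2 fold change of -4.56 at the lowest FDR of that fit, 0.1. It was also not called with the 2 corrections together (-4.63), with all 24 libraries (-4.53), without Sham2 (-4.44) or without SNI2 (-4.54).

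Signs turned for some named genes, and those that follow are not all of them. Without Sham3, 4 of the 25 heat shock and chaperone genes were above 0, against 0 with 6 libraries. mt-Co1 was at 0.0118 with the GC offset, with or without the block. Leaving out libraries 1 at a time put mt-Atp6 at -0.389 to 0.583, Syt2 at -0.182 to 0.146, Acta2 at -0.165 to 0.201 and Col1a1 at -0.398 to 0.207. Without SNI1 and the filter Acta2 was at 0.193 and Col1a1 at 0.0637, and without SNI1 and Sham3 they were at 0.431 and 0.375. Leaving out libraries 1 at a time put Alb at -9.33 to 3.06 and Apoa1 at -4.62 to 2.84. Both were negative without SNI1, with and without the filter (-9.33 and -4.62), and at -9.91 and -5.19 without SNI1 and Sham3. At this depth a gene with few reads, such as Gm27998 or the long Gcat entry after SNI, has the widest error, and 3 pools a group limit all comparisons.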
